A study of Mus musculus with 20 samples.

Results

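BV-2, an immortalized microglial line made from brain cultures of C57BL/6 mice, was compared at a late and at an early passage in the untreated state. These 10 cultures were 10 of the 20 RNA-sequencing libraries of the study and were chosen by their labels: 5 aged untreated and 5 young untreated cultures, 1 of each in every one of 5 labelled batches. Aged cells came from a higher starting passage than the young cells and were kept in culture for a long period before being frozen in aliquots, whereas young cells (the control) were used at a low passage. Both kinds of aliquot were thawed at the same time, both carried the label WT, and both grew in high-glucose DMEM with foetal bovine serum, penicillin and streptomycin. The other 10 cultures were aged and young BV-2 of the same batches given 100 ng/ml of lipopolysaccharide (LPS), a bacterial cell wall component, for 6 hours. How many separate long-term cultures were carried is not given in the sources used here, and starting passage, time in culture and freezing after that time cannot be told apart between the groups. The p-values below therefore measure the spread between cultures of a group, and not that between separate long-term cultures. That spread was estimated over all 20 libraries, the LPS-treated ones included. "Aged" is used below for the label on these cultures and says nothing of the age of an animal.

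Microglia are the resident macrophages of the brain. They carry pattern-recognition receptors that sense microbes, of which TLR4 binds LPS, and these receptors activate the transcription factors NF-kB and IRF3. IRF3 drives type I interferon, which acts through IFNAR and the STAT proteins on genes whose promoters hold an interferon-stimulated response element. Microglia also take up debris through scavenger, Fc and complement receptors, digest it in lysosomes and pass the lipid on through ApoE and ABC transporters. BV-2 cells keep many macrophage functions but divide without limit and hold little of the homeostatic program of microglia in the brain.

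Each untreated library held 13865989 to 16829292 counts assigned to genes, and 12799 of 55487 listed genes had enough counts to be tested. Values are given as CPM (counts scaled to a common library total with TMM factors), means are ± SD over 5 cultures, and 3 counts, the floor below which a gene was treated as undetected, were 0.165 to 0.207 CPM in these libraries. Mitochondrial genes took 0.663 to 1.30% of the counts. Levels are not corrected for gene length and are compared between cultures only, never between genes. A gene was called a DEG at a Benjamini-Hochberg adjusted p below 0.05 in edgeR's quasi-likelihood test, and log2 fold changes are aged minus young. The median of a gene list is that of the log2 fold changes of its tested members, to be read beside the values over all tested genes. In bulk RNA, fewer cells of a kind and less RNA per cell cannot be told apart.

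Between the aged and young untreated cultures 1475 genes were DEGs, 11.5% of those tested. Of these 475 were higher in aged cells (3.71% of the tested genes) and 1000 were lower (7.81%). The lower genes had moved further: their median log2 fold change was -0.41 against 0.24 for the higher genes, and 148 lower DEGs but 27 higher DEGs changed by at least 1 on the log2 scale. The 5 aged values lay wholly above the 5 young values for 481 tested genes (3.76%) and wholly below them for 849 (6.63%). The median log2 fold change of all tested genes was -0.014. With the batch held as a block the DEGs came to 768 higher and 1436 lower. The higher DEGs came to 277 when young culture 2 was left out, to 277 without young culture 3, to 299 without aged culture 2 and to 300 without aged culture 4. The DEGs in both directions came to 977, 954 and 981 without young culture 2, young culture 3 and aged culture 4.

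Macrophage markers were present in both groups. All 12 macrophage markers looked at were above the floor, while the lists for neurons, astrocytes, fibroblasts, lymphocytes and neutrophils each summed to at most 0.552 CPM per library. The endothelial list held Flt1 and Kdr, receptors for vascular growth factors, well above the floor (Flt1 at 320.3 ± 8.59 CPM in young and 334 ± 10.9 CPM in aged cultures, Kdr at 103 ± 5.99 CPM in young and 75 ± 6.58 CPM in aged cultures), while its defining markers Pecam1, Cldn5, Cdh5 and Tek were at the floor. Kdr was itself a DEG, lower by 0.45 on the log2 scale in aged cells. The oligodendrocyte markers summed to 0.759 to 1.85 CPM per library.

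**Figure D1:**
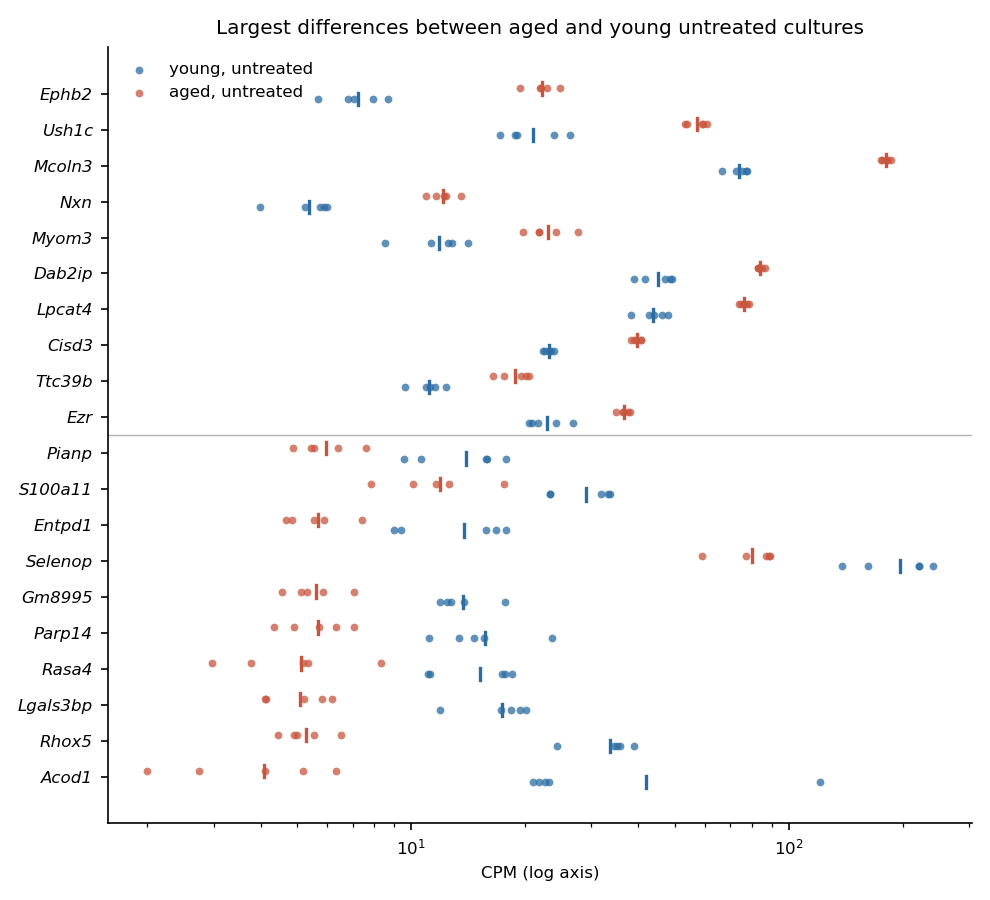
CPM on a log axis of the 10 genes most increased (top) and the 10 most decreased (bottom) in aged untreated BV-2. They were taken among DEGs that averaged 3 log2 CPM or more over the untreated cultures and whose groups did not overlap. Each point is 1 culture (5 young in blue, 5 aged in red) and each bar the group mean. By this choice all 5 aged points lie on one side of all 5 young points in every row.

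The largest changes were sought among DEGs with a mean of 3 log2 CPM or more whose groups did not overlap. The largest increase was that of Ephb2, a receptor tyrosine kinase for ephrin-B ligands. Ephb2 was at 8.69, 7.93, 6.82, 7.06 and 5.66 CPM in young cultures 1 to 5 and at 22, 24.8, 19.5, 22.9 and 22 CPM in aged cultures 1 to 5. No aged culture came near the young range, and the log2 fold change was 1.62 ± 0.13 (SE, adjusted p = 2.19e-08, edgeR), a 3.07-fold rise of the means. Ush1c, which encodes the scaffold protein harmonin, was at 19.1, 18.8, 17.1, 23.9 and 26.3 CPM in young cultures 1 to 5 and at 60.6, 53.9, 59.1, 53.2 and 59 CPM in aged cultures 1 to 5 (adjusted p = 3.84e-09). Mcoln3, a cation channel of endosomes and lysosomes, was at 77.7, 76.9, 75.1, 66.7 and 72.3 CPM in young cultures 1 to 5 and at 187, 176, 183, 180.5 and 176 CPM in aged cultures 1 to 5, and here the aged cultures were spread over a narrower range than their distance from the young ones (log2 fold change 1.29, adjusted p = 6.22e-10). The other 7 of the 10 most increased genes changed less. Nxn, a redox protein of the thioredoxin family, rose from 5.37 ± 0.824 to 12.1 ± 0.958 CPM. Myom3, a myomesin better known from muscle, rose from 11.9 ± 2.12 to 23.1 ± 3.05 CPM, and Dab2ip, a Ras GTPase-activating protein, from 45.1 ± 4.48 to 84.1 ± 1.57 CPM. Lpcat4, a lysophospholipid acyltransferase, rose from 43.7 ± 3.72 to 76.2 ± 1.84 CPM and Cisd3, an iron-sulfur protein of mitochondria, from 23.1 ± 0.649 to 39.6 ± 1.07 CPM. Ttc39b went from 11.2 ± 1.0 to 18.8 ± 1.73 CPM, and Ezr, the ezrin that ties membranes to actin, from 22.8 ± 2.66 to 36.6 ± 1.22 CPM.

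Of the 10 largest decreases at a mean of 3 log2 CPM or more (again only DEGs without overlap) the first was that of Acod1. It encodes the enzyme that makes itaconate in activated macrophages. Acod1 was at 121, 21, 23.2, 21.8 and 22.6 CPM in young cultures 1 to 5 and at 5.17, 4.1, 2.0, 2.75 and 6.33 CPM in aged cultures 1 to 5. Young culture 1 stood far above the other 4 young cultures (log2 fold change -3.38, adjusted p = 4.73e-05, and -2.47 without young culture 1). All aged cultures lay below all young ones, which the choice required. Rhox5, an X-linked homeobox gene, was at 38.9, 35.1, 24.3, 34.6 and 35.7 CPM in young cultures 1 to 5 and at 6.53, 4.98, 4.91, 4.45 and 5.53 CPM in aged cultures 1 to 5, and fell in each batch (adjusted p = 7.95e-11). Lgals3bp, a secreted glycoprotein that binds galectin-3, fell from 17.4 ± 3.25 to 5.09 ± 0.946 CPM. Parp14, an ADP-ribosyltransferase, fell from 15.7 ± 4.72 to 5.67 ± 1.08 CPM. Rasa4, another Ras GTPase-activating protein, fell from 15.2 ± 3.71 to 5.11 ± 2.05 CPM. Selenop, the selenium carrier selenoprotein P, fell from 197 ± 43.9 to 80.1 ± 12.9 CPM, and S100a11, a calcium-binding protein, from 29 ± 5.24 to 12 ± 3.62 CPM. Gm8995 fell from 13.7 ± 2.35 to 5.58 ± 0.954 CPM, and Pianp, a ligand of an inhibitory receptor of myeloid cells, from 13.9 ± 3.62 to 5.96 ± 1.06 CPM. In 5 of these genes (Rasa4, Selenop, Entpd1, S100a11 and Pianp) young cultures 4 and 5 held the lowest young values, above the aged range by the choice.

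All 12 general markers of microglia and macrophages had a log2 fold change below 0, with a median of -0.41. Of these 6 were DEGs (50%, against 7.81% of all tested genes in that direction). Aif1, which encodes the microglial marker IBA1, was at 9.31, 16.9, 12.3, 12.7 and 16.8 CPM in young cultures 1 to 5 and at 6.53, 5.85, 7.08, 4.78 and 6.53 CPM in aged cultures 1 to 5 (adjusted p = 0.000221). Every aged value was under every young value. Adgre1, the F4/80 antigen, fell from 310.4 ± 46 to 205 ± 46 CPM, and Csf1r, the receptor for the survival factor CSF1, from 854 ± 98.6 to 631 ± 88.2 CPM, with overlapping cultures in both. Csf1r lost its call without both cultures of batch 1 (adjusted p up to 0.0891). Laptm5, a lysosomal membrane protein of leukocytes, fell from 1275 ± 41.2 to 1089 ± 43.1 CPM.

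Of 12 genes of the homeostatic microglial state 8 could be tested, 7 of them with a log2 fold change below 0, and Sall1 and Siglech were at the floor. The list median was -0.47, and 4 members were DEGs, each lower (50%, against 7.81% of all tested genes). The mean log2 CPM of the list was lower in every aged culture (3.52 to 3.90) than in every young one (4.09 to 4.46). Fcrls, an Fc receptor-like protein, fell from 1.3 ± 0.232 to 0.481 ± 0.255 CPM. Olfml3, a secreted protein, fell from 16.9 ± 2.28 to 10.7 ± 0.99 CPM. P2ry12, the ADP receptor by which microglia are often recognised, was at 0.414, 1.53, 1.87, 0.857 and 1.2 CPM in young cultures 1 to 5 and at 0.905, 1.21, 0.97, 0.494 and 0.599 CPM in aged cultures 1 to 5. Its groups overlapped and it did not pass the test (log2 fold change -0.51, adjusted p = 0.414). Tmem119, another defining marker, had a log2 fold change of 0.021 (adjusted p = 0.954). The list held 2 DEGs without aged culture 4, without young culture 2 and without young culture 3.

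Of 23 purine receptors and ectonucleotidases 10 were tested, with a median log2 fold change of -0.23. Of these 3 were DEGs, each lower (30%, against 7.81% of all tested genes). The median was -0.42 without aged culture 1 and -0.55 without both cultures of batch 1. Entpd1, the ectonucleotidase CD39 that degrades extracellular ATP, was at 16.8, 15.8, 17.9, 9.03 and 9.39 CPM in young cultures 1 to 5 and at 5.89, 4.84, 7.42, 4.67 and 5.53 CPM in aged cultures 1 to 5 (adjusted p = 0.00169). The highest aged value was below the lowest young value. P2ry6, the UDP receptor tied to phagocytosis, fell from 9.6 ± 2.3 to 4.87 ± 0.933 CPM, and it lost its call without both cultures of batch 1 (adjusted p up to 0.0638). P2ry13, an ADP receptor, was at 2.0, 4.99, 4.59, 3.96 and 3.06 CPM in young cultures 1 to 5 and at 2.13, 1.95, 1.26, 1.21 and 2.93 CPM in aged cultures 1 to 5. Aged cultures 1 and 5 lay inside the young range for P2ry13, and the gene lost its call without any one of aged cultures 3 and 4 and young cultures 2 and 3 (adjusted p up to 0.0764).

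Among the gene lists the interferon effectors had the lowest median. Of 52 listed interferon-stimulated effectors 49 were tested, 48 had a log2 fold change below 0 and 17 were DEGs (34.7%, against 7.81% of all tested genes in that direction). The groups did not overlap for 23 of them, against 6.63% of all tested genes. The median log2 fold change was -1.30, or -0.70 with the genes at the floor set to their bounds. The filter on low counts ran over all 20 libraries, so that members with few counts in untreated cells entered through the LPS-treated ones, and in a fit of the 10 untreated libraries alone 31 members were tested, with a median of -0.64 and 22 DEGs. The levels were low: 28 of the 49 averaged under 1 log2 CPM, 9 did not exceed the floor in any aged culture and 3 did not exceed it in any culture of either group. Rsad2, the antiviral enzyme viperin, was at 43.7, 3.64, 12.7, 6.2 and 5.59 CPM in young cultures 1 to 5 and at 1.29, 1.01, 0.171, 0.659 and 1.2 CPM in aged cultures 1 to 5. Young culture 1 was again the highest, and every aged culture was below every young one (log2 fold change -4.07, adjusted p = 0.000948, and -3.06 without young culture 1). Cmpk2, the neighbour of Rsad2 and a nucleotide kinase, fell from 2.82 ± 2.3 to 0.199 ± 0.0878 CPM, and lost its call without both cultures of batch 1 (adjusted p up to 0.07). Isg15, a ubiquitin-like modifier, fell from 1.78 ± 1.15 to 0.251 ± 0.12 CPM, and Cxcl10, a chemokine for T cells, from 4.43 ± 2.91 to 0.627 ± 0.327 CPM. Cxcl10 lost its call without any one of aged cultures 2, 3, 4 and 5 and young cultures 1 and 3 and without both cultures of batch 1 (adjusted p up to 0.111). Ifi204, a DNA sensor with close paralogs, fell from 15.5 ± 2.73 to 7.15 ± 1.39 CPM, and Slfn2, a Schlafen protein, from 14.7 ± 2.96 to 7.32 ± 1.92 CPM. Gbp2, a guanylate-binding protein with near-identical relatives, and Rtp4 were at the floor in every aged culture. They were at least 6.06-fold and 6.47-fold lower there, or at least 4.24-fold and 3.65-fold without young culture 1. The list mean was 1.03 to 2.08 log2 CPM in the young cultures and 0.156 to 0.653 in the aged ones, lower in each batch. The count of 17 DEGs became 10 without aged culture 2, 8 without aged culture 4 and 9 without young culture 1, and 32 in DESeq2.

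The promoters of Rsad2, Isg15 and Cxcl10 are printed because each holds the interferon-stimulated response element, written here as GAAANNGAAA and searched on both strands. They are the 250 bases before the RefSeq start site on GRCm38.p6, read in the direction of the gene: chr12:26456453-26456702 (minus strand) for Rsad2, chr4:156200819-156201068 (minus strand) for Isg15 and chr5:92348890-92349139 (minus strand) for Cxcl10. Capitals mark the bases of each match.
Rsad2: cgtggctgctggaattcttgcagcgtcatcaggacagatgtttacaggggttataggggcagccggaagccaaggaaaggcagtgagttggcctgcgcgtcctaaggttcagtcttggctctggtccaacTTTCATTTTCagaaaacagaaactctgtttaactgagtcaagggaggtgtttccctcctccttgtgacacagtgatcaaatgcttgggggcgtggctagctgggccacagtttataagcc
Isg15: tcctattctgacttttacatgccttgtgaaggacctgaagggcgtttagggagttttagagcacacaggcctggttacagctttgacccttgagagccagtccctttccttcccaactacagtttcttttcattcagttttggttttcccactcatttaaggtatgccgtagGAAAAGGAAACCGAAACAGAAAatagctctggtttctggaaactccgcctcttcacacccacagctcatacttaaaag
Cxcl10: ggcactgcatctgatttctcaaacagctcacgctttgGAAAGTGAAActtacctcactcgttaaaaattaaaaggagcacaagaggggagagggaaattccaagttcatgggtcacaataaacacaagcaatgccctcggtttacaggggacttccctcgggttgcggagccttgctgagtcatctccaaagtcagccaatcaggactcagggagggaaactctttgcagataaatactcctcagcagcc
Of the 37 tested effectors with a RefSeq promoter 19 held a match (51.4%), against 305 of 9040 tested genes with one (3.37%), and so did 7 of the 13 effectors that were DEGs. Among all DEGs that were lower in aged cells the share was 4.20%, and among those higher it was 3.49%. The table of promoters is not complete, and a match is only a run of letters in the window.

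Of the genes that carry the interferon signal all 16 tested members had a log2 fold change below 0, with a median of -0.25. Among them 7 were DEGs (43.8%, against 7.81% of all tested genes in that direction). Ifnar1, a chain of the type I interferon receptor, fell from 98.1 ± 7.38 to 80.9 ± 2.04 CPM. Ifngr1 and Ifngr2, the chains of the interferon-gamma receptor, fell from 29.8 ± 2.79 to 23.2 ± 1.22 CPM and from 129.8 ± 4.4 to 109 ± 5.13 CPM. Irf7, a transcription factor that is itself induced by interferon, was at 4.76, 1.15, 2.66, 1.71 and 2.06 CPM in young cultures 1 to 5 and at 0.711, 0.74, 0.342, 0.549 and 0.999 CPM in aged cultures 1 to 5. The Irf7 groups did not overlap, but the call was lost without any one of aged cultures 1, 2, 3 and 4 and young cultures 1 and 3 and without both cultures of batch 1 (adjusted p up to 0.146). The gene lies beside Phrf1 on the other strand, and the strand setting of the counting is not given. Tyk2, a receptor kinase, had a log2 fold change of -0.34 and lost its call without any one of aged culture 2 and young culture 1 (adjusted p up to 0.064). Irf8, a transcription factor of myeloid cells, fell from 138 ± 2.66 to 115 ± 9.28 CPM. Without aged culture 2 the list held 4 DEGs.

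Pattern-recognition receptors and their adaptors followed in the same direction, with 23 of 28 below 0 and a median of -0.21. The list held 9 DEGs, each lower (32.1%, against 7.81% of all tested genes). Tlr8, an endosomal sensor of single-stranded RNA, was at 2.83, 3.32, 2.54, 2.18 and 2.33 CPM in young cultures 1 to 5 and at 0.323, 0.336, 0.742, 0.385 and 0.40 CPM in aged cultures 1 to 5 (log2 fold change -2.55, adjusted p = 1.28e-06). All aged values were well below the young range. Tlr1, which pairs with TLR2 on bacterial lipoproteins, fell from 35.3 ± 1.89 to 20.5 ± 2.04 CPM. Nod1, a cytosolic sensor of bacterial cell wall fragments, fell from 4.14 ± 0.752 to 2.2 ± 0.512 CPM. Ly86, which holds the TLR4-like receptor RP105 at the surface, fell from 235 ± 23.5 to 167 ± 16.7 CPM. Tlr4 itself was at 68.8, 76.8, 69.3, 67.8 and 64.3 CPM in young cultures 1 to 5 and at 62.1, 66.7, 68, 53.6 and 61.6 CPM in aged cultures 1 to 5, and its groups overlapped (log2 fold change -0.15, adjusted p = 0.307). Of 23 members of the NF-kB module 20 were below 0, with a median of -0.20. The 8 DEGs were all lower (34.8%, against 7.81% of all tested genes). Tnfaip3, the A20 brake on NF-kB, fell from 10.0 ± 0.916 to 6.5 ± 0.962 CPM, Nfkbiz, a nuclear IkB protein, from 19.7 ± 1.18 to 13.9 ± 1.95 CPM, and Bcl3, another, from 5.46 ± 1.15 to 3.65 ± 0.356 CPM. Nrip1, a co-regulator of nuclear receptors and of NF-kB, did not pass the test (log2 fold change 0.083, adjusted p = 0.754). Traf1, an adaptor of the TNF receptor family, was at the floor in every aged culture and at least 9.89-fold lower there, or at least 5.27-fold without young culture 1.

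Of 25 tested cytokines and chemokines 20 were below 0. The median was -0.46, or -0.28 with bounds in place of the values of genes at the floor. Of the 25 tested members 5 were DEGs (20%, against 11.5% of all tested genes in either direction). Without young culture 1 the median was -0.23, and in the 10 untreated libraries alone, where 18 members were tested, it was -0.27. Tnf, the central inflammatory cytokine, fell from 24.5 ± 4.44 to 16.6 ± 3.28 CPM, and lost its call without any one of aged cultures 1, 2, 4 and 5 and young cultures 1 and 3 and without both cultures of batch 1 (adjusted p up to 0.208). Ccl4, a chemokine of monocytes, fell from 9.3 ± 4.14 to 4.92 ± 0.528 CPM, and lost its call without any one of aged culture 4 and young cultures 1 and 3 and without both cultures of batch 1 (adjusted p up to 0.119). Csf3, the granulocyte growth factor, was at the floor in every aged culture and at least 4.42-fold lower, or at least 3.38-fold without young culture 1. Cxcl14 was the member that rose, from 57.7 ± 3.7 to 77.1 ± 7.55 CPM. The 4 decreased members became 2 without aged culture 2 and 1 without aged culture 4, without young culture 1 and without young culture 3, while the fit with a batch block gave 8 and DESeq2 gave 7.

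**Figure D2:**
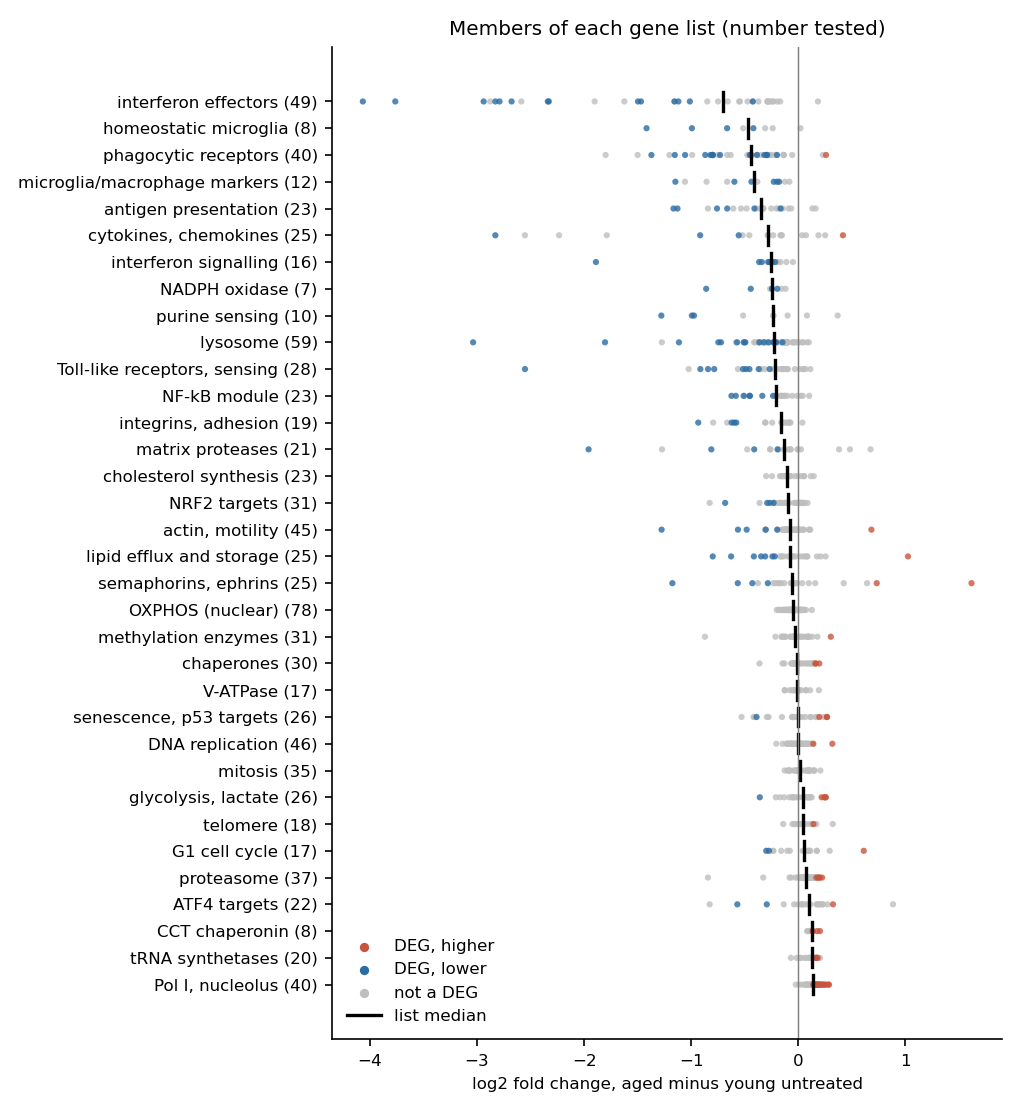
Log2 fold change, aged minus young untreated, of each tested member of 34 gene lists, with the number tested in brackets. Genes at the floor in a group are left out of the points but enter the list median (black bar) at their bound. Imprinted and mitochondrially encoded genes are not drawn. The medians of immune lists lie to the left of 0, with the interferon effectors lowest at -0.70, and the nucleolar list lies highest at 0.14.

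Of 40 tested genes for phagocytosis and opsonins 38 were below 0, with a median log2 fold change of -0.44, and 16 were DEGs lower in aged cells (against 7.81% of all tested genes). C1qb, a chain of complement C1q, was at 228, 214, 192, 171 and 196 CPM in young cultures 1 to 5 and at 83.8, 69.3, 123, 77.2 and 96.2 CPM in aged cultures 1 to 5 (adjusted p = 5.29e-05). Aged culture 3 held the highest aged value and was still below the young range. Mrc1, the mannose receptor, was at 71.1, 94.2, 105, 82.4 and 79.6 CPM in young cultures 1 to 5 and at 32.1, 38.4, 56.1, 39.2 and 41.8 CPM in aged cultures 1 to 5 (adjusted p = 8.68e-05). Scarb1, a scavenger receptor for lipoproteins, fell from 304 ± 13 to 233 ± 9.73 CPM, a small change that was even across cultures (adjusted p = 5.33e-06). Clec7a, the beta-glucan receptor dectin-1, fell from 117 ± 12.7 to 66.9 ± 6.68 CPM, Fcgr3, a receptor for antibody, from 132 ± 21.5 to 79.5 ± 12 CPM, and Mertk, which binds dying cells, from 79.3 ± 3.44 to 58.3 ± 4.42 CPM. Siglece, an inhibitory sialic acid receptor, had a log2 fold change of -1.37 and lost its call without any one of aged culture 3 and young culture 3 (adjusted p up to 0.0753). Trem2, a lipid receptor of microglia, did not pass the test (log2 fold change -0.26, adjusted p = 0.304). Lpl, the lipoprotein lipase, was the member that rose, from 1903 ± 227 to 2279.9 ± 103 CPM, but lost its call without any one of aged cultures 1, 4 and 5 and young cultures 1, 2 and 3 and without both cultures of batch 1 (adjusted p up to 0.123).

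Of 59 tested lysosomal genes 53 were below 0, with a median of -0.23 (-0.15 without both cultures of batch 1). The 16 DEGs were all lower (27.1%, against 7.81% of all tested genes). Ids, the sulfatase that is lost in Hunter syndrome, was at 2.14, 2.94, 2.41, 0.857 and 1.53 CPM in young cultures 1 to 5 and at 0.259, 0.269, 0.0571, 0.439 and 0.133 CPM in aged cultures 1 to 5 (log2 fold change -3.04, adjusted p = 1.65e-05). Its groups did not overlap, at levels near the floor in the aged cells. Ctso and Ctsh, cysteine proteases, fell from 3.96 ± 0.913 to 1.11 ± 0.493 CPM and from 162 ± 18.7 to 96.8 ± 9.5 CPM, and Ctsf, another, from 63.4 ± 12.4 to 29.2 ± 4.95 CPM. Man2b1, a mannosidase, fell from 388 ± 71.5 to 235 ± 27.6 CPM. Ctsk, the collagen-degrading cathepsin K, was at 1593, 887, 892, 430.4 and 541 CPM in young cultures 1 to 5 and at 139, 317, 793, 321 and 226 CPM in aged cultures 1 to 5. It did not pass the test (log2 fold change -1.27, adjusted p = 0.0507), with aged culture 3 far above the other aged cultures and inside the young range. With the batch as a block Ctsk passed (log2 fold change -1.31, adjusted p = 0.0196), and the list then held 25 decreased DEGs. The same count was 25 without aged culture 3 and 10 without young culture 1. The 17 subunits of the V-ATPase, the pump that acidifies lysosomes, had a median of -0.0067 (0.014 with library sizes alone, -0.024 to 0.012 with 1 culture left out) and held 0 DEGs in edgeR and in DESeq2, with 2 at an unadjusted p below 0.05. With the batch block 1 subunit, Atp6v1d, was a DEG (log2 fold change 0.19, adjusted p = 0.0470).

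The promoter of Ctsf is printed as an example of a lysosomal gene with an E-box, CACGTG (the same on both strands), the core of the element bound by TFEB, a transcription factor of lysosomal genes. It is chr19:4854915-4855164 (plus strand, GRCm38.p6), the 250 bases before the RefSeq start site, with the motif in capitals.
Ctsf: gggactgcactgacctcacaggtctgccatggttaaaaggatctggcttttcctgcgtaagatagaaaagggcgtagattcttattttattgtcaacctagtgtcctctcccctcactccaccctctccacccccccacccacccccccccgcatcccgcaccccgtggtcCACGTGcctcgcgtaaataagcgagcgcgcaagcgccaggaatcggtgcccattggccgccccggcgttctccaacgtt
An E-box was found in 15 of the 49 tested lysosomal genes with a RefSeq promoter (30.6%), against 10.3% of all 9040. It was found in 4 of the 15 lysosomal DEGs with a promoter (Ctsf, Naglu, Sgsh and Cln3).

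**Figure D3:**
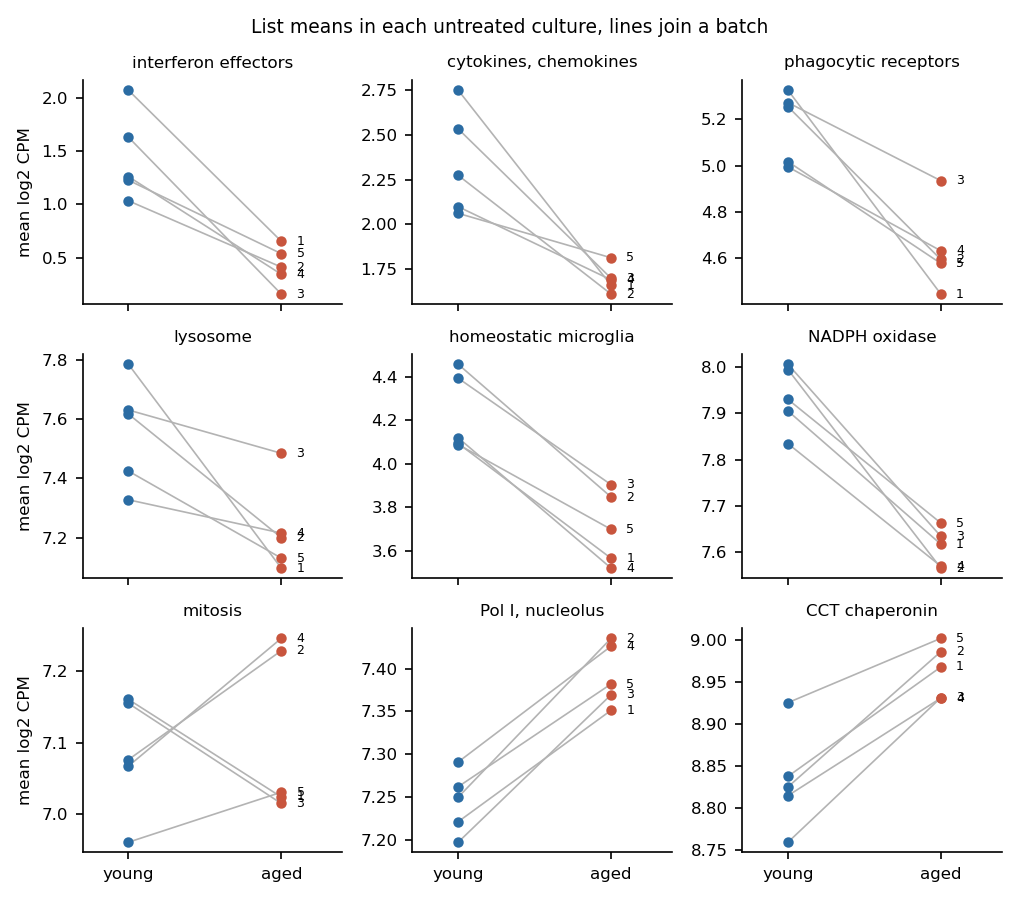
Mean log2 CPM over the tested members of 9 gene lists in each untreated culture, young in blue and aged in red, with grey lines joining cultures of 1 batch (numbered at the right). Every axis has its own range, the aged cultures lie below the young ones in each batch for the 6 immune and lysosomal lists and above them for the nucleolar and CCT lists, and mitosis genes go both ways.

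The phagocyte NADPH oxidase, which makes superoxide, had all 7 subunits below 0 (median -0.25). It held 4 DEGs (57.1%, against 7.81% of all tested genes in that direction). Cybb, its catalytic subunit, was at 313, 402, 384, 299 and 368 CPM in young cultures 1 to 5 and at 164, 195, 197, 199 and 219 CPM in aged cultures 1 to 5 (log2 fold change -0.86, adjusted p = 1.11e-06). All young values exceeded all aged ones. Ncf4, a cytosolic subunit, fell from 86.1 ± 5.81 to 63.3 ± 2.56 CPM, and Ncf1 from 346 ± 13 to 292 ± 13.8 CPM. In antigen presentation 21 of 23 genes were below 0 (median -0.34). The 6 DEGs were all lower (26.1%, against 7.81% of all tested genes). H2-K1, a classical MHC class I chain, was at 176, 181, 206, 141 and 154 CPM in young cultures 1 to 5 and at 77.1, 73.8, 90.5, 76.5 and 74.6 CPM in aged cultures 1 to 5 (adjusted p = 3.07e-07). Reads of H2-K1 and H2-Q4 (from 10.5 ± 2.1 to 6.17 ± 0.727 CPM) may be shared with near-identical class I genes. Cd40, a costimulatory receptor, fell from 10.6 ± 1.72 to 4.74 ± 0.817 CPM, and Cd74, the invariant chain of MHC class II, from 51.1 ± 10.2 to 32.3 ± 3.9 CPM. The count was 12 without aged culture 3, in which the list mean was highest of the aged cultures, and 14 with the batch block.

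In lipid handling the members went both ways. Of 25 genes of lipid efflux and storage 16 were below 0, 7 fell and 1 rose (32% in all, against 11.5% of all tested genes). The median was -0.077, or -0.12 without aged culture 1, -0.048 without aged culture 3 and -0.14 without both cultures of batch 1. Apoe, the main lipid carrier of the brain, was at 3419.6, 3303, 3234, 2175 and 2515 CPM in young cultures 1 to 5 and at 1709, 1627, 2039, 1468 and 1579 CPM in aged cultures 1 to 5 (adjusted p = 0.00254). Young cultures 4 and 5 were the lowest of the young ones and stayed above every aged culture. Abca1, which loads lipid onto ApoE, fell from 90.2 ± 7.06 to 67.7 ± 7.81 CPM, and Fabp4, a fatty acid carrier, from 42.3 ± 6.11 to 27.4 ± 4.35 CPM. Fabp3, another carrier, was at 3.24, 3.0, 2.96, 2.64 and 3.93 CPM in young cultures 1 to 5 and at 7.37, 6.39, 5.08, 5.55 and 7.86 CPM in aged cultures 1 to 5 and rose (log2 fold change 1.03, adjusted p = 0.000123). Fabp3 overlaps Zcchc17 on the other strand. Without aged culture 5 the list held 4 decreased DEGs. Of 23 enzymes of cholesterol synthesis 18 were below 0, and 0 were DEGs in edgeR or in DESeq2, 1 at an unadjusted p below 0.05. Their median of -0.10 ran from -0.18 without aged culture 1 to -0.014 without aged culture 3, and was -0.23 without both cultures of batch 1.

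Glycolysis and lactate transport showed small differences. Of 26 genes 16 were above 0 (median 0.048), 4 rose and 1 fell (19.2% in all, against 11.5% of all tested genes). Slc16a3, the lactate exporter MCT4, was at 218, 187, 179, 181 and 198 CPM in young cultures 1 to 5 and at 219, 235, 238, 226 and 229 CPM in aged cultures 1 to 5 (log2 fold change 0.25, adjusted p = 0.014). Young culture 1 came within 1 CPM of the lowest aged culture. Slc16a1, the transporter MCT1, rose from 397 ± 17.4 to 461 ± 33.4 CPM. Pfkp, a phosphofructokinase that overlaps Pitrm1, rose from 182 ± 13.9 to 218 ± 9.43 CPM, and lost its call without any one of aged cultures 1, 2, 4 and 5 and young cultures 1, 2 and 3 and without both cultures of batch 1 (adjusted p up to 0.146). Slc2a6, a hexose transporter, had a log2 fold change of -0.36 and lost its call without any one of aged cultures 2, 3 and 4 and young cultures 1, 4 and 5 and in the 10 untreated libraries alone (adjusted p up to 0.103). Ldha, which makes lactate, did not pass the test (log2 fold change 0.13, adjusted p = 0.168), but did so with the batch block (log2 fold change 0.13, adjusted p = 0.0316). The 4 increased genes became 2 when any one of aged cultures 1, 2, 4 and 5 or young cultures 1, 2 and 3 was left out.

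Genes of DNA replication and mitosis were nearly level between the untreated groups. The 46 replication genes had a median log2 fold change of 0.0013 (-0.022 to 0.017 with 1 culture left out). Of these 2 were DEGs, both higher (4.35%, against 3.71% of all tested genes). Orc2, a subunit of the origin recognition complex that overlaps Nif3l1, rose from 127 ± 7.74 to 159 ± 8.04 CPM, while Orc4 (log2 fold change 0.14) lost its call without any one of aged cultures 2, 3 and 5 and young cultures 1, 2, 3 and 4, without both cultures of batch 1, with no filter on low counts and in the 10 untreated libraries alone with or without a batch block (adjusted p up to 0.214). The 35 mitosis genes had a median of 0.013 (-0.025 to 0.055 with 1 culture left out, 0.082 without both cultures of batch 1) and 0 DEGs in edgeR, 1 at an unadjusted p below 0.05 and 1 in DESeq2. Mki67, the Ki-67 proliferation marker, had a log2 fold change of -0.13 (adjusted p = 0.64). Ccnb2, a mitotic cyclin, did not pass in the edgeR test (log2 fold change 0.15, adjusted p = 0.0565) and passed with the batch block (adjusted p = 0.0277), in DESeq2 (adjusted p = 0.0317), with either other scaling, in the 10 untreated libraries alone and without aged culture 3. Among 17 genes of the G1 phase Ccnd2, a D-type cyclin, was at 127, 141, 145, 166 and 160.2 CPM in young cultures 1 to 5 and at 201, 248, 226, 234 and 223 CPM in aged cultures 1 to 5 (log2 fold change 0.61, adjusted p = 3.76e-06). All aged values exceeded all young ones. Myc, a transcription factor of growth, did not pass the test (log2 fold change -0.23, adjusted p = 0.294). Rb1 and Rbl2, the pocket proteins that hold back E2F, had log2 fold changes of -0.30 and -0.27. Rb1 lost its call without any one of aged cultures 3, 4 and 5 and young cultures 2, 3 and 4 and with library sizes alone (adjusted p up to 0.105), and Rbl2 lost its call without any one of aged cultures 1 and 4 and young cultures 1 and 2 and without both cultures of batch 1 (adjusted p up to 0.146). Ccne1, a cyclin of the G1/S transition, became a DEG with the batch block (log2 fold change 0.30, adjusted p = 0.0032), which gave 3 increased G1 genes in place of 1.

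The 26 genes of senescence and p53 targets had a median log2 fold change of -0.0054 (0.015 with library sizes alone, -0.028 to 0.025 with 1 culture left out), with 3 DEGs higher and 1 lower (15.4%, against 11.5% of all tested genes). Aen, a nuclease, rose from 30.3 ± 2.05 to 36.5 ± 2.49 CPM. Sesn1, a stress-induced inhibitor of mTORC1, fell from 68.8 ± 4.46 to 52.6 ± 6.55 CPM. Cdkn1a, which encodes the cell cycle inhibitor p21, did not pass the test (log2 fold change -0.42, adjusted p = 0.0812), but did so with the batch block in the 10 untreated libraries alone (log2 fold change -0.40, adjusted p = 0.00441). The increased members became 1 when any one of aged cultures 1 and 4 or young cultures 1, 2 and 3 was left out. Of 18 telomere genes 13 were above 0 (median 0.048, or 0.030 to 0.079 with 1 culture left out). A DEG was 1 of them, higher (5.56%, against 3.71% of all tested genes). It was Dkc1, which binds the telomerase RNA and also modifies ribosomal RNA. Dkc1 went from 182 ± 4.71 to 201 ± 7.49 CPM, overlaps Mpp1, and lost its call without any one of aged cultures 1, 2 and 5 and young cultures 1, 2 and 3, without both cultures of batch 1 and with no filter on low counts (adjusted p up to 0.114). Tert, the telomerase protein, had a log2 fold change of 0.32 (adjusted p = 0.37).

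The nucleolar genes lay on the other side of 0 from the immune genes. Of 40 genes of RNA polymerase I and ribosome assembly 39 were above 0 and 17 were DEGs, each higher (42.5%, against 3.71% of all tested genes in that direction). The changes were small, with a median log2 fold change of 0.14, but the list mean was higher in every aged culture (7.35 to 7.44 log2 CPM) than in every young one (7.20 to 7.29). Ddx21, a nucleolar helicase, was at 414, 455, 431, 454 and 434 CPM in young cultures 1 to 5 and at 474, 566, 516, 542 and 501 CPM in aged cultures 1 to 5 (log2 fold change 0.25, adjusted p = 0.00396). Ncl, nucleolin, was at 2853, 2943, 2796, 3228 and 2939 CPM in young cultures 1 to 5 and at 3339, 3512, 3392, 3465 and 3282 CPM in aged cultures 1 to 5 (adjusted p = 0.00831), with no overlap. Npm1, nucleophosmin, rose from 1292 ± 97.7 to 1508 ± 57 CPM, Rrp12, a ribosome export factor, from 128 ± 8.93 to 155 ± 9.89 CPM, and Rrp9, which binds the U3 RNA, from 66.2 ± 6.59 to 80.8 ± 3.98 CPM. The count was 11 without aged culture 2, 11 without young culture 3 and 9 with no filter on low counts. Of 143 tested genes of the symbol families Rps and Rpl 1 was a DEG higher and 2 were lower, against 3.71% and 7.81% of all tested genes. These genes were grouped by symbol and may include pseudogenes and others that do not encode a ribosomal protein.

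Other genes of protein production differed by similarly small steps. Of 20 cytosolic tRNA synthetases 18 were above 0 (median 0.13, or 0.084 without both cultures of batch 1), and 3 were DEGs, each higher (15%, against 3.71% of all tested genes). Hars, Kars and Dars rose from 123 ± 5.24 to 139.6 ± 3.39 CPM, 333 ± 8.99 to 375 ± 5.72 CPM and 164 ± 5.95 to 184 ± 5.7 CPM. Dars lost its call with no filter on low counts (adjusted p up to 0.0538). The list held 5 DEGs without aged culture 3. All 8 subunits of the CCT chaperonin, which folds actin and tubulin, were above 0 (median 0.13). Of these 4 were DEGs (50%, against 3.71% of all tested genes in that direction). Cct6a rose from 430.4 ± 23.8 to 486 ± 10.2 CPM. The count was 2 without aged culture 2 and 1 without aged culture 5, young culture 2 or young culture 3. Of 37 proteasome subunits 31 were above 0 (median 0.077, or 0.047 to 0.11 with 1 culture left out) and 5 rose (13.5%, against 3.71% of all tested genes), among them Psmd12, from 119 ± 4.12 to 137 ± 3.34 CPM. The proteasome count was between 1 and 3 when any one culture other than aged culture 3 and young culture 5 was left out, and 8 with the batch block. Psmb8 and Psmb9, the subunits that interferon brings in for antigen processing, had log2 fold changes of -0.33 and -0.84 and did not pass the test, while both fell with the batch block (adjusted p = 0.0474 and 0.0067). Among 30 chaperones 3 were DEGs, each higher (10%, against 3.71% of all tested genes). Dnaja1, Hsph1 and Hsp90aa1 rose, with log2 fold changes of 0.20, 0.17 and 0.16, and the list median was -0.0077 (0.013 with library sizes alone, -0.038 to 0.045 with 1 culture left out). Hsp90aa1 lost its call without both cultures of batch 1 (adjusted p up to 0.0598). Of 22 targets of the stress factor ATF4 16 were above 0 and 3 were DEGs (13.6%, against 11.5% of all tested genes). The median was 0.10, but 0.0064 without aged culture 1, 0.20 without aged culture 3 and -0.021 without both cultures of batch 1. Slc7a5, an amino acid transporter, had a log2 fold change of 0.33 and lost its call without any one of aged cultures 1, 2, 4 and 5 and young cultures 1, 2 and 3 and without both cultures of batch 1 (adjusted p up to 0.185). Atf5 fell from 18.3 ± 2.03 to 12.3 ± 1.44 CPM, and Atf3 fell by less (log2 fold change -0.29) and lost its call without any one of aged cultures 2 and 4 and young culture 1 and without both cultures of batch 1 (adjusted p up to 0.0882).

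The respiratory chain differed little. Of 78 nuclear genes of oxidative phosphorylation 60 were below 0, with a median log2 fold change of -0.050 (-0.079 to -0.011 with 1 culture left out), and 0 were DEGs in edgeR or in DESeq2, although 10 were lower at an unadjusted p below 0.05. The fit with a batch block gave 7 decreased DEGs, among them Cox6a1, a subunit of cytochrome oxidase (log2 fold change -0.17, adjusted p = 0.0032), and 3 were DEGs without young culture 4. The 7 tested members of the list of mitochondrially encoded genes held 0 DEGs in either tool and 0 at an unadjusted p below 0.05. With the batch block in the 10 untreated libraries alone mt-Nd1 and mt-Nd2, subunits of complex I, were higher (adjusted p = 0.0459 and 0.0262). All 16 tested genes of the mitochondrial genome had a median of 0.25, against 0.068 for the list. Of these 16 genes 75% were above 0, and 0 were DEGs in edgeR. Of 31 NRF2 targets 21 were below 0 (median -0.091, or -0.13 to -0.051 with 1 culture left out) and 4 were DEGs (12.9%, against 11.5% of all tested genes). Slc40a1, the iron exporter ferroportin, fell from 15.8 ± 2.57 to 9.83 ± 0.854 CPM, and lost its call without any one of aged culture 2 and young cultures 1 and 2 and without both cultures of batch 1 (adjusted p up to 0.0625). Taldo1, a pentose phosphate enzyme, fell from 303 ± 29.5 to 248 ± 21 CPM, and Sod2, the mitochondrial superoxide dismutase, from 152 ± 8.63 to 129 ± 3.82 CPM. Sod2 lost its call without both cultures of batch 1 (adjusted p up to 0.0625). The batch block gave 8 decreased NRF2 targets, and 2 were left without young culture 1 or young culture 2.

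Of 19 integrins and adhesion genes 18 were below 0 (median -0.16, or -0.34 without aged culture 3). The 4 DEGs were all lower (21.1%, against 7.81% of all tested genes). Itgal, a chain of the leukocyte integrin LFA-1, was at 126, 172, 162, 127 and 117 CPM in young cultures 1 to 5 and at 70.9, 77.5, 70.3, 76.7 and 73.2 CPM in aged cultures 1 to 5 (adjusted p = 3.81e-05). The aged cultures lay below the young range. Itga6 fell from 181 ± 9.75 to 117 ± 6.88 CPM, Itgb5, which binds vitronectin, from 175 ± 28.4 to 117 ± 19 CPM, and the tetraspanin Cd81, which overlaps another listed gene, from 27 ± 2.19 to 17.8 ± 2.37 CPM. The count was 7 without aged culture 3. Of 68 semaphorins, plexins, ephrins and their receptors 25 were tested, 18 of them below 0 (median -0.060, or -0.10 to -0.024 with 1 culture left out). Beside Ephb2, the ligand Efna2 rose at a low level, from 1.47 ± 0.398 to 2.43 ± 0.446 CPM, and lost its call without any one of aged cultures 1, 3 and 4 and young cultures 1, 2 and 3, without both cultures of batch 1 and in the 10 untreated libraries alone with a batch block (adjusted p up to 0.113). The semaphorins Sema4a and Sema4d fell from 98.1 ± 7.79 to 66.3 ± 2.11 CPM and from 169 ± 12.1 to 139 ± 8.64 CPM, and the plexin receptors Plxnb3 and Plxnc1 from 1.83 ± 0.53 to 0.798 ± 0.24 CPM and from 139.6 ± 17.5 to 104 ± 8.54 CPM. Of 61 matrix proteases and inhibitors 21 were tested (median -0.13, or -0.28 without aged culture 3 and -0.085 without young culture 1). Of these 4 fell (19%, against 7.81% of all tested genes). Mmp8, a collagenase, fell from 2.32 ± 0.421 to 0.581 ± 0.164 CPM, Mmp19 from 14.7 ± 1.48 to 11.1 ± 0.794 CPM, and Timp2, an inhibitor of these enzymes, from 67.7 ± 15 to 38.6 ± 6.6 CPM. Of 45 genes of the actin cytoskeleton and motility 35 were below 0 (median -0.078), 5 fell and Ezr rose, 13.3% in all against 11.5% of all tested genes. Tmsb4x, which sequesters actin monomers, fell from 545 ± 45.9 to 391 ± 45.9 CPM and Fermt3, which activates integrins, from 292 ± 10.7 to 237 ± 17.6 CPM. Zyx, a focal adhesion protein, had a log2 fold change of -0.56 (adjusted p = 0.0412), which was 0.0506 with the batch block, and lost its call without any one of aged cultures 1, 2, 3, 4 and 5 and young cultures 1, 2 and 3, without both cultures of batch 1 and with library sizes alone (adjusted p up to 0.167). Capg did not pass the test (log2 fold change -0.0058, adjusted p = 0.971).

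Among 31 enzymes that write and remove DNA and histone methylation the median was -0.027 (-0.036 to -0.0031 with 1 culture left out). The list held 1 DEG higher and 1 lower (6.45% in all, against 11.5% of all tested genes). Dnmt3b, a de novo DNA methyltransferase, rose from 28.8 ± 2.22 to 35.6 ± 3.58 CPM, and lost its call without both cultures of batch 1 (adjusted p up to 0.0589). Kdm5b, a histone demethylase, was at or under the floor in each aged culture and at least 4.93-fold lower there. Of 32 imprinted genes 6 were tested (median -0.27), and Gnas, which encodes a G protein subunit, had a log2 fold change of -0.17 and lost its call without any one of aged cultures 2, 4 and 5 and young cultures 1, 2 and 3, without both cultures of batch 1 and with no filter on low counts (adjusted p up to 0.0827).

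Some genes were above the floor of 3 counts in 1 group alone, though they could have a few reads in the other. Of 55487 listed genes 21 were at or under the floor in all 5 aged cultures and above it in all 5 young ones, and 5 showed the reverse. Highest among the first were Traf1, described above, Rcn1, a calcium-binding protein of the endoplasmic reticulum, at 1.93 ± 0.314 CPM in young cells, and Nos2, the inducible nitric oxide synthase, at 1.53 ± 1.19 CPM. Rcn1 was at least 9.58-fold and Nos2 at least 7.59-fold lower in aged cells, where the bound for Nos2 was 5.30-fold without young culture 1. Highest among the 5 were the potassium channel Kcnk2 at 0.588 ± 0.308 CPM, Spry4, an inhibitor of growth factor signalling, at 0.559 ± 0.257 CPM and the receptor Erbb3 at 0.50 ± 0.164 CPM. Their group means were at least 2.85-fold, 2.70-fold and 2.42-fold higher. These 5 genes and some of the 21 had too few counts to be tested. Kcnk2 had up to 3 counts in a young culture and as few as 4 in an aged one.

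The share of DEGs varied between chromosomes. Of 397 tested genes on chromosome 16, 55 were lower (13.9%, against 7.81% of all) and 4 higher (1.01%, against 3.71%), and 31.2% had a log2 fold change above 0. The chromosome's median was -0.076, and the medians of aged minus young within batches 1 to 5 were -0.063, -0.095, -0.060, -0.088 and -0.073. Of 425 genes on chromosome 14, 37 were higher (8.71%) and 24 lower (5.65%), with a median of 0.045. Its medians in batches 1 to 5 were 0.058, 0.048, -0.0028, 0.047 and 0.056, so batch 3 did not share the shift. In the LPS-treated cultures, which share no library with these, the medians were -0.066 on chromosome 16 and 0.063 on chromosome 14. Of the 55 decreased genes of chromosome 16, 34 were decreased DEGs there too, and 23 of the 37 increased genes of chromosome 14 were increased DEGs. Over all chromosomes these shares were 60.3% of the decreased and 52.4% of the increased DEGs, so the counts are not particular to these chromosomes. Among 1186 overlapping runs of 50 neighbouring genes the median log2 fold change went from -0.26 to 0.085. The lowest run held 22 DEGs, all lower: Arap3 and 21 genes of the protocadherin-gamma cluster, cell adhesion proteins that share their last exons, so that their counts are not independent. Over the 22 tested protocadherin-gamma genes the log2 fold change ran from -0.68 to -0.30. Next came a run on chromosome 1 (GRCm38, 171345670 to 178318549) with 9 decreased DEGs, among them the SLAM-family receptors Ly9, Cd48 and Cd84, the interferon-inducible Ifi203, Ifi204, Ifi207 and Mndal, and Kmo. The highest run lay on chromosome 14 (40906445 to 51359964), with 7 increased DEGs (Ero1l, Psmc6, Styx, Exoc5, Ccnb1ip1, Rpph1 and Apex1) and 3 decreased ones (Txndc16, Tep1 and Rnase4). Counts in these runs of 50 are to be read beside 3.71% higher and 7.81% lower over all tested genes. The runs were picked as extremes of the 1186, and their counts were not tested.

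**Figure D4:**
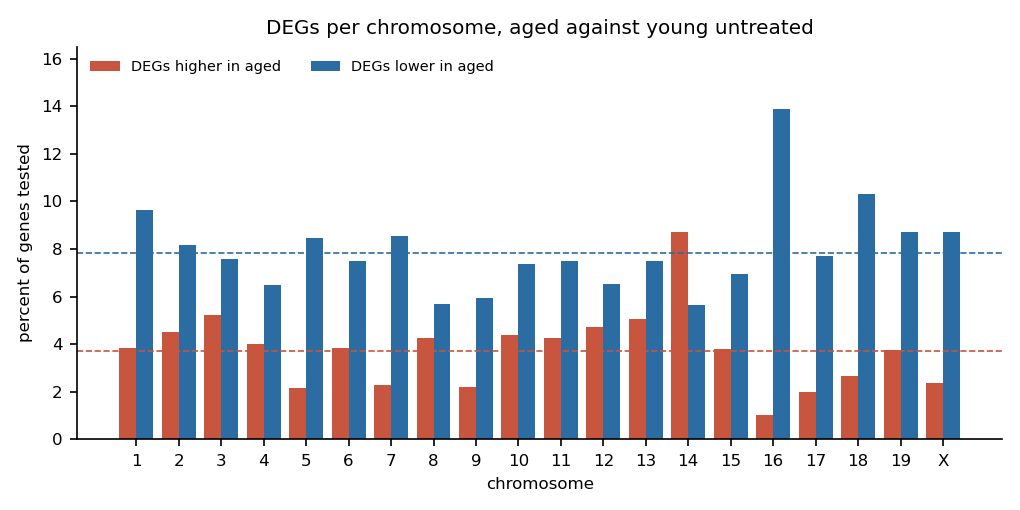
Percent of tested genes on each chromosome that were DEGs higher (red) or lower (blue) in aged untreated BV-2, with the shares over all tested genes (3.71% and 7.81%) as broken lines. The lower bar of chromosome 16 (13.9%) and the higher bar of chromosome 14 (8.71%) stand above the rest.

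The same genes were then read in the 10 LPS-treated cultures, in which 14% of tested genes were higher and 15% were lower in aged cells. Of the 475 genes that were higher in untreated aged cells 427 had the same sign under LPS and 249 (52.4%) were DEGs in that direction, while 6 were DEGs the other way. Of the 1000 lower genes 868 kept their sign, 603 (60.3%) were DEGs in that direction and 34 were DEGs the other way. A test of the difference between the untreated and LPS comparisons (the interaction term of the same fit) passed for 32 of the higher and 114 of the lower genes. These genes were chosen by their untreated difference, which enters this test. The share of all tested genes that passed is not given here. Ephb2 was higher under LPS too (log2 fold change 2.37), as was Ccnd2 (log2 fold change 0.57), and Rhox5 (-2.61) and Cybb (-0.61) were lower. Among the 20 largest changes the test of the difference passed for Acod1, whose log2 fold change was -3.38 untreated and -0.75 under LPS, and for Ezr, whose log2 fold change was 0.68 untreated and 0.16 under LPS.

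Some lists held other counts of DEGs in the stimulated cultures, where DEGs were also more common over all tested genes. Decreased DEGs were 15% of tested genes under LPS and 7.81% untreated, and increased ones 14% and 3.71%. Of the 40 uptake genes 30 were decreased DEGs under LPS, against 16 in the untreated state. The nucleolar list, with 17 increased DEGs untreated, held 6 under LPS, where its median was 0.039. Of the 46 replication genes 38 were increased DEGs under LPS and 2 were in untreated cells. These pairs of counts are set side by side, and the difference between them was not tested.

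**Figure D5:**
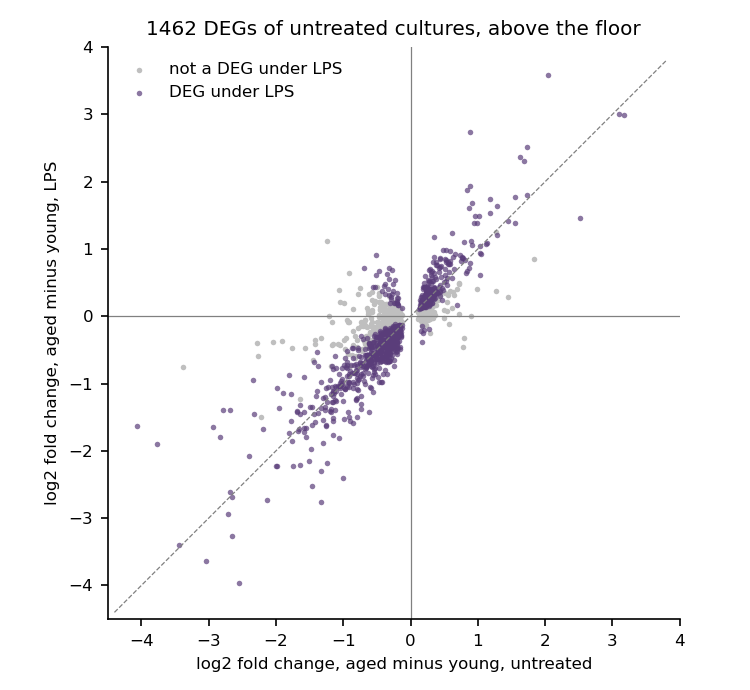
Log2 fold change, aged minus young, of 1462 untreated DEGs above the floor in both groups, in untreated cultures (x axis) and in LPS-treated cultures (y axis). Purple points were DEGs under LPS too, the broken line marks equal values, and most points lie in the lower left and the upper right.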

How the data were processed

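Poly(A) RNA of 20 BV-2 cultures was sequenced as stranded, paired-end libraries. The authors aligned the reads to GRCm38 with STAR 2.6.1d and counted them per gene with featureCounts 1.5.1, and deposited the raw counts. The settings for strand, multimapping and overlapping genes are not given in the sources used here, so values of overlapping genes and close paralogs are uncertain. The deposited counts were fitted with edgeR 4.0.16 (TMM, filterByExpr, quasi-likelihood F-test on all 20 libraries with 1 term per group, Benjamini-Hochberg adjustment). The submitters' notes name DESeq2 for their own test, and DESeq2 1.42.0 was an alternative here, as were other scalings and filters, a batch block, the 10 untreated libraries alone and each library left out. The script was tested on simulated data. Log2 CPM used a prior count of 2.

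The labels number the batches 1 to 5 in every group, which pairs the cultures. Deviations of aged and young cultures from their group means correlated at -0.084, 0.039, 0.17, 0.18 and 0.25 in batches 1 to 5. Replicate libraries differed by more than counting noise (chi-square per degree of freedom 3.13 to 20.0), so none was counted as a copy of another. The floor of 3 counts covers counting error only.

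The genes, the 36 gene lists and the tests were chosen with earlier results of these data known. The genes named are the 10 largest increases and decreases among DEGs without overlap at a mean of at least 3 log2 CPM. In each list at most 3 of the smallest p and 3 of the largest changes are named. Also named are a set of genes whatever their values, the 3 highest genes above the floor in 1 group alone, and the DEGs of the highest and lowest runs of neighbours. Some genes that this rule would name are not reported here. Outside that rule, and chosen after their values were seen, are Clec7a, Cmpk2, Ctsf, Cxcl10, Fcgr3, Fermt3, Flt1, Ifi204, Irf8, Isg15, Itgb5, Kdr, Lpl, Man2b1, Mertk, Ncl, Npm1, Plxnc1, Sema4d and Tnf, the genes at the floor named with their lists, the lysosomal genes named for their E-box and the DEGs of the second lowest run. Promoters came from a RefSeq table of GRCm38.p6, which held one for 9040 of the 12799 tested genes. A gene with several start sites in that table counted as a match if any of them matched.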

Additional observations from a re-analysis of the deposited data

Results flagged for a closer look

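In 112 groups of 5 cultures (72 of gene lists, 40 of single genes) 4 cultures stood far from the other 4 of their group, by Dixon's criterion for the gap to the nearest value. Chance gives such a gap in about 5% of groups. Acod1 was at 121 CPM in young culture 1 and at 21 to 23.2 CPM in the other young cultures. The mean of the antigen presentation list was 4.47 log2 CPM in aged culture 3 and 4.20 to 4.21 in the other aged cultures. The mean of the G1 list was 5.90 log2 CPM in young culture 1 and 6.07 to 6.11 in the others, and that of the semaphorin and ephrin list was 3.82 in young culture 5 and 4.02 to 4.09 in the others.

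Among the 20 largest changes the aged minus young difference itself differed between LPS and untreated cultures for Ezr and Acod1. The difference of log2 fold changes, LPS minus untreated, was -0.52 for Ezr (adjusted p = 0.000994, edgeR interaction term) and 2.63 for Acod1 (adjusted p = 0.00669). On the log2 scale Ezr thus differed less between aged and young cells after LPS than before it, and so did Acod1. The 20 genes were chosen by their untreated difference, which enters this test, so the choice itself favours a smaller difference under LPS. Acod1 was not a DEG under LPS (adjusted p = 0.0996, edgeR). In CPM the means of Acod1 were 3554 in young and 2107 in aged cultures under LPS, and 41.9 and 4.07 untreated. The untreated young mean of Acod1 includes the high culture 1.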

How the results depend on the processing

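Over 18 alternatives none of the 134 named genes that were DEGs changed sign, 178 of 2406 values lost the call (35 genes) and 27 of 65 other genes gained it under at least 1. With 1 culture left out the DEGs were 954 to 1578, those higher 277 to 498 and those higher that were also higher under LPS 160 to 252. The higher DEGs were 768 with the batch block, 783 with the block in the 10 untreated libraries and 303 without both cultures of batch 1, an alternative chosen after seeing the data. Those also higher under LPS were 389 with the block and 449 with library sizes alone. DESeq2 gave 609 higher and 1115 lower. With library sizes alone the higher share of DEGs was 42.2%, against 32.2% with TMM, and 26.4% with no filter on low counts. Beyond the genes and lists given with their results, the batch block changed the calls of Cox7a2l (-0.20), Ndufa13 (-0.18) and Cxcl2, and of no other named gene. The block in the 10 untreated libraries alone also called Gdf15, Itgam, Sars and Slc7a11, among others. The block also gave 2 decreased proteasome genes, 8 decreased actin genes, 2 decreased senescence genes, 2 decreased methylation enzymes and 1 increased matrix protease. The sign turned for 3 genes, none a DEG. Capg was at 0.015 with library sizes alone, 0.0085 and 0.0077 in the 10 untreated libraries with and without the block, and 0.053 without batch 1. With 1 culture left out Capg ran from -0.047 to 0.045, Nqo1 from -0.96 to 0.18 and Tmem119 from -0.097 to 0.094. The causes were not tested. Genes with a mean near the floor, which include most interferon effectors, rest on few counts.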
